A study of Homo sapiens with 8 samples.

Results

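The low-density lipoprotein (LDL) receptor family and its partners were examined as 9 genes of the 23346 in the table, taken by symbol: the receptors LRP1, LRP2, VLDLR, LRP8, LRP4, LRP3 and LRP10, the chaperone LRPAP1 and the sorting receptor SORL1. Polyadenylated RNA was sequenced from the human cell line hCMEC/D3, which derives from endothelium of small brain vessels and serves as a laboratory stand-in for the blood-brain barrier. All 8 libraries were labelled as replicates of this line with no treatment or genotype named, and they formed 1 group, so no comparison between conditions existed. The labels did not say whether the replicates were separate cultures, so every p-value below measures only the spread between these libraries. A single immortalised line was measured, and the labels name no other cell type. In such bulk RNA, fewer expressing cells and less RNA per cell cannot be told apart.

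Receptors of this family carry clusters of cysteine-rich repeats that bind lipoproteins, proteases bound to their inhibitors, matrix proteins and signalling ligands. They are taken up through clathrin-coated pits by adaptors that bind the short cytoplasmic tail, release their cargo in acid endosomes and recycle to the surface. At the blood-brain barrier LRP1 is best known for carrying amyloid-beta out of the brain and as a target of peptide shuttles for drug delivery, and SORL1 is known for steering the amyloid precursor protein away from the endosome, in neurons above all.

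Against its label the line was checked with marker genes: 10 of 10 endothelial markers had a CPM (count scaled to a common library size) of at least 1 in every library, with a summed level of 1898 to 3541 CPM. Markers of other cells reached that level in 3 of 6 cases for mural cells, 1 of 6 for neurons, 0 of 5 for astrocytes, 0 of 5 for microglia or leukocytes and 1 of 6 for epithelium or choroid plexus. The summed levels of these lists were 38.0 to 66.1, 3.24 to 7.84, 0.820 to 1.07, 0.544 to 1.62 and 3.97 to 5.30 CPM. The defining neuron gene STMN2 and the astrocyte gene AQP4 had 0 counts in every library. Libraries held 69388544 to 90205244 counts. Every count in the table was even, so 2 counts were read as 1 read pair. Libraries differed in how their levels changed with transcript length: the slope of a library's deviation from the gene means, per doubling of length, lay between 0.086 and 0.15 (log2) in replicates 1, 3, 4, 5 and 6 and was -0.22, -0.11 and -0.34 in replicates 2, 7 and 8. Values with this trend removed are given beside the results on variation of the members. For other genes the variation calls were made without removing it.

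Promoter windows from RefSeq (GRCh38.p14, the 250 bases before the annotated start) were matched for 8 of the 9 members. The window of LRP10, the member with the highest level, is shown beside those of SORL1 and LRP2, which fell short of detection. Capitals mark 3 short motifs on either strand, whose matches do not overlap in these windows: GGGCGG (the GC box), the pentamer CCAAT, and the E-box CACGTG.
LRP10 (chr14:22871490-22871739, plus strand): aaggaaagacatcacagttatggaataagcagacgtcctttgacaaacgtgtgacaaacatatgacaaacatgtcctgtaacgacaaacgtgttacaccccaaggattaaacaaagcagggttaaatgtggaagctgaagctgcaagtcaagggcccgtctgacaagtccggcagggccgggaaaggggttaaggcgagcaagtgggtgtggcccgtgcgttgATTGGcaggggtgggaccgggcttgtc
SORL1 (chr11:121452064-121452313, plus strand): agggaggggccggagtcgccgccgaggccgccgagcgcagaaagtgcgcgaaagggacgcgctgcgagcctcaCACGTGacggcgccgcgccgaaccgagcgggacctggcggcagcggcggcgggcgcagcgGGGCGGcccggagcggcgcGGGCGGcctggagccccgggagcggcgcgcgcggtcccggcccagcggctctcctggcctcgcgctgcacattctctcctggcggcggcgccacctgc
LRP2 (chr2:169362535-169362784, minus strand): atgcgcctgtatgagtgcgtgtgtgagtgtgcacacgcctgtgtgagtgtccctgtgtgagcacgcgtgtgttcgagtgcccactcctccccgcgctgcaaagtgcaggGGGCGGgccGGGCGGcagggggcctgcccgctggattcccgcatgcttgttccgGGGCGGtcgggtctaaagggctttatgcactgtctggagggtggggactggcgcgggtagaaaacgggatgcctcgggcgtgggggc

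The LRP10 window held 11 CpG dinucleotides, the same as the median of all 35116 windows, and a GC content of 51.6% against a median of 58%. It had no GGGCGG and 1 CCAAT. The SORL1 window held 45 CpGs, more than 99.4% of all windows, with 2 copies of GGGCGG and 1 CACGTG. The LRP2 window held 21 CpGs and 3 copies of GGGCGG. Of the other matched members, VLDLR, LRP3, LRP8 and LRP1 had 41, 37, 31 and 20 CpGs, and LRPAP1 had windows with 27 and 26. Over all windows, 42.6% held GGGCGG, 32.0% held CCAAT and 6.34% held CACGTG. A motif match in such a window is only a match of letters.

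LRP10 had the highest CPM of the set in every library. Of the 9 members, 7 were detected (CPM of at least 1 in all 8 libraries), against 51.3% of all listed genes, and LRP2 and SORL1 were not. LRP10 took 58.9% ± 2.81 of the summed CPM of the members (SD, n = 8), followed by LRPAP1 with 24.8% ± 3.68 and LRP8 with 9.22% ± 3.49. LRP1, the receptor for which the family is most often cited at this barrier, took 2.10% ± 0.696. For comparisons between genes, levels were divided by the length of the annotated canonical transcript in kilobases (RPKM). On that scale LRP10 held 66.2% ± 3.02 of the members' sum and LRP1 1.09% ± 0.361. The share of LRP10 moved with the transcript model: it was 79.0% ± 2.38 with exons inside the table's gene span and 49.6% ± 2.28 with coding length, where LRPAP1 held 41.5% ± 4.08 and was the highest member in 1 of 8 libraries.

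**Figure D1:**
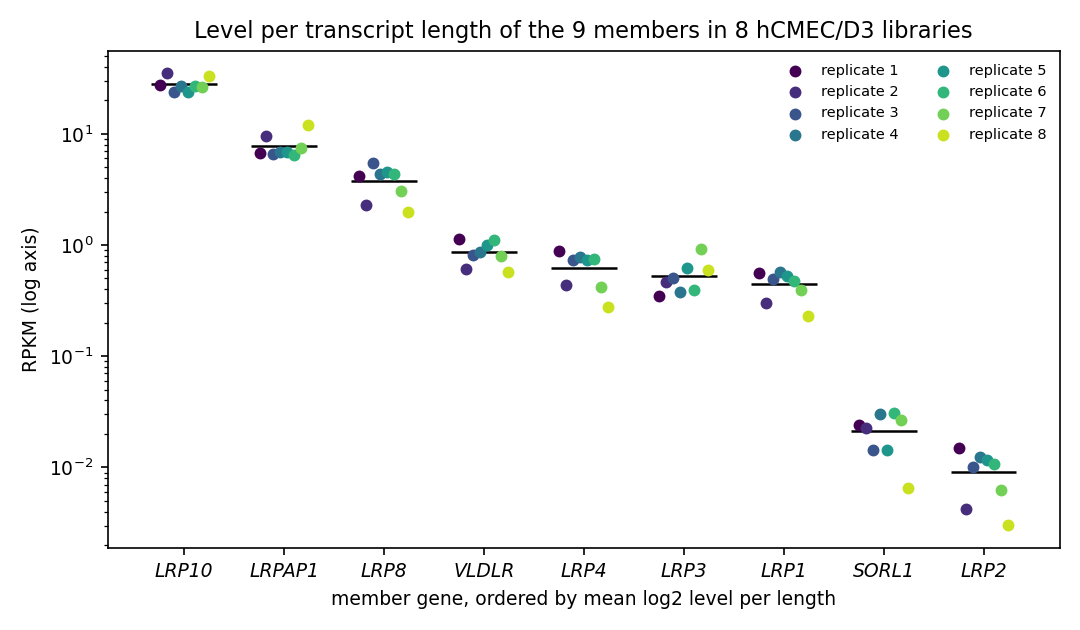
Level per transcript length (RPKM, log axis) of the 9 members, 1 point per library and a line at the mean of the 8 libraries. LRP10 lies highest in every library, between 23.6 and 34.97 RPKM, and LRP2 and SORL1 lie below 0.04 RPKM in all of them.

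LRP1 and LRP2 are the giant scavenger receptors of the family. LRP1 (chromosome 12, 57522282 to 57607125, plus strand, 89 exons) had CPM values of 8.39, 4.52, 7.42, 8.56, 7.83, 7.08, 5.89 and 3.45 in replicates 1 to 8. Replicates 2, 7 and 8 held the 3 lowest values, and the highest library exceeded the lowest 2.48 times. The mean was 6.64 ± 1.86 CPM and 0.445 ± 0.125 RPKM (SD, n = 8), which exceeded the mean log2 level per length of only 1.71% of detected genes. LRP1 was thus counted in every library but stood near the bottom of the detected genes per length. Detection by CPM takes no account of length, so a long transcript such as that of LRP1 (14923 nt) passes it at a lower RPKM. The rank per length is biased downward for such genes.

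LRP2, or megalin, is a receptor of absorptive epithelia such as kidney proximal tubule. LRP2 (chromosome 2, 169983619 to 170219122, minus strand, 79 exons) had raw counts of 16, 6, 12, 14, 14, 12, 8 and 4 in replicates 1 to 8. The mean level was 0.143 ± 0.0658 CPM (SD, n = 8). The lowest library, replicate 8, had 0.0473 CPM (95% exact Poisson interval on read pairs 0.00573 to 0.171), and the highest, replicate 1, had 0.235 (0.101 to 0.463). These intervals cover counting error only, and no test was made between single libraries. Among the preset LRP2 partners, the co-receptor CUBN was low at 2.64 ± 0.820 CPM, its anchor AMN was not detected (0.0569 ± 0.0486 CPM), and the tail-binding proteins DAB2 and GIPC1 were at 84.4 ± 13.6 and 173 ± 50.7 CPM.

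VLDLR and LRP8 share ligands, as both bind Reelin and apolipoprotein E, and LRP8 is also called apolipoprotein E receptor 2. VLDLR (chromosome 9, 2621793 to 2654485, plus strand, 19 exons) had CPM values of 10.4, 5.61, 7.47, 7.93, 9.28, 10.3, 7.36 and 5.32 in replicates 1 to 8. Its mean was 7.96 ± 1.95 CPM and 0.864 ± 0.211 RPKM (SD, n = 8). The highest library exceeded the lowest 1.96 times, and replicates 2, 7 and 8 were again the lowest.

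LRP8 (chromosome 1, 53708041 to 53793821, minus strand, 19 exons) had CPM values of 31.9, 17.5, 41.7, 33.8, 34.7, 33.7, 23.5 and 15.2 in replicates 1 to 8. Its mean was 29.0 ± 9.26 CPM and 3.77 ± 1.202 RPKM (SD, n = 8). Replicate 3 was highest and replicate 8 lowest, 2.74 times apart. Within libraries VLDLR lay below LRP8 per length in 8 of 8, by a log2 ratio of -1.96 ± 0.32 (SD, n = 8). An exact permutation test over the signs of the 8 ratios, two-sided, gave p = 0.00781, which no pattern of signs can undercut, and an adjusted p of 0.00923. The adjustment covered 13 tests, which count this pair as both a preset and a neighbouring pair. The annotated VLDLR transcript runs past the gene end in the table. When only exons inside the table's span were used, VLDLR had 2.19 ± 0.535 RPKM and the ratio was -0.72 ± 0.31, below 0 in 8 of 8 libraries (exact permutation adjusted p = 0.00923, n = 8).

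Of the 12 preset genes for Reelin and agrin signalling, 7 were detected, a share near the 51.3% of all listed genes. None varied above the edgeR trend described below, and 1 did with the DESeq2 fitted trend, against 4.66% and 23.5% of all detected genes. The ligand RELN had 0.396 ± 0.199 CPM and DAB1, the adaptor that both receptors use in neurons, had 0.00277 ± 0.00783 CPM (SD, n = 8), with counts in a single library. The kinases FYN and SRC, which phosphorylate DAB1, were at 84.9 ± 9.81 and 45.2 ± 6.56 CPM. AGRN, PAFAH1B1 and RAPGEF1 were the highest of the list, at 608 ± 65.1, 282 ± 46.2 and 182 ± 11.7 CPM.

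LRP4 is the agrin receptor of the neuromuscular junction and also restrains Wnt signalling in bone. LRP4 (chromosome 11, 46878268 to 46940173, minus strand, 38 exons) had CPM values of 7.22, 3.59, 5.95, 6.39, 5.94, 6.16, 3.43 and 2.25 in replicates 1 to 8. Its mean was 5.12 ± 1.77 CPM and 0.627 ± 0.217 RPKM (SD, n = 8). It had the largest spread of the detected members on the log2(CPM + 0.1) scale (SD 0.58), with replicate 1 3.21 times above replicate 8. The agrin gene AGRN was abundant, as above, but the other parts of the junctional LRP4 complex were not detected: MUSK, DOK7 and RAPSN had 0.0496 ± 0.0337, 0.0628 ± 0.0382 and 0.183 ± 0.0601 CPM.

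LRP3 and LRP10 form a separate branch with CUB domains. LRP3 (chromosome 19, 33685599 to 33699773, plus strand, 7 exons) had CPM values of 1.41, 1.91, 2.07, 1.54, 2.51, 1.60, 3.75 and 2.44 in replicates 1 to 8. Its mean was 2.15 ± 0.762 CPM and 0.531 ± 0.188 RPKM (SD, n = 8). Replicate 7 stood above all others, and the lowest value, in replicate 1, rested on 96 counts. LRP3 therefore passed the detection level by a small margin.

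LRP10 (chromosome 14, 23340960 to 23347291, plus strand, 7 exons) cycles between the trans-Golgi network, endosomes and the surface. It had CPM values of 190, 241, 165, 185, 163, 184, 180 and 226 in replicates 1 to 8. Its mean was 192 ± 27.9 CPM and 27.8 ± 4.04 RPKM (SD, n = 8). It had the smallest coefficient of variation of the members, 14.5%, with replicates 2 and 8 highest and the other 6 libraries between 163 and 190 CPM. The annotated transcript also runs past the gene end in the table, and with exons inside the table's span the level was 59.0 ± 8.58 RPKM. LRP3 lay below LRP10 per length in 8 of 8 libraries, by -5.51 ± 0.46 (log2, SD; exact sign-flip permutation adjusted p = 0.00923, n = 8).

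LRPAP1 encodes the receptor-associated protein, a chaperone of the endoplasmic reticulum that keeps ligands off newly made receptors. LRPAP1 (chromosome 4, 3505324 to 3534224, minus strand, 8 exons) had CPM values of 70.5, 101, 68.1, 71.1, 71.1, 67.4, 78.2 and 124 in replicates 1 to 8. Its mean was 81.4 ± 20.5 CPM and 7.79 ± 1.96 RPKM (SD, n = 8). Replicates 1, 3, 4, 5 and 6 lay within 67.4 to 71.1 CPM, a coefficient of variation of 2.52%, whereas replicates 2, 7 and 8 were the 3 highest. LRP1 lay below its chaperone per length in 8 of 8 libraries by -3.86 ± 0.68 (log2, SD; exact sign-flip permutation adjusted p = 0.00923, n = 8). That ratio was -3.44 ± 0.068 in replicates 1, 3, 4, 5 and 6 and between -5.18 and -3.94 in replicates 2, 7 and 8. The transcript model weighs on the level of LRPAP1, since its canonical transcript has 10446 nt, of which 1071 are coding. Divided by coding length instead, LRPAP1 had 76.0 ± 19.1 RPKM and LRP10 had 89.6 ± 13.0, and the ratio of LRP1 to LRPAP1 was -7.02 ± 0.69.

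SORL1 combines LDL receptor repeats with the VPS10 domain of the sortilins. SORL1 (chromosome 11, 121322912 to 121504471, plus strand, 48 exons) had raw counts of 18, 22, 12, 24, 12, 24, 24 and 6 in replicates 1 to 8. Its mean was 0.231 ± 0.0946 CPM (SD, n = 8). The lowest library, replicate 8, had 0.0710 CPM (95% exact Poisson interval 0.0146 to 0.207) and the highest, replicate 6, had 0.336 (0.174 to 0.587). The sortilin gene SORT1, by contrast, had 333 ± 55.9 CPM, and SORL1 lay below SORT1 per length in 8 of 8 libraries, by -8.60 ± 0.17 on log2(RPKM + 0.1) (SD; exact sign-flip permutation adjusted p = 0.00923, n = 8). The pseudocount of 0.1 exceeds the level of SORL1 (0.0213 ± 0.00871 RPKM), so this ratio understates the difference. SORCS1, SORCS2 and SORCS3 were not detected, at 0.00344, 0.475 and 0.0238 CPM on average.

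Of 16 preset genes for retromer and GGA sorting, the machinery that SORL1 uses, 15 were detected and none varied above the edgeR or the DESeq2 fitted trend, led by SNX6, VPS35 and VPS26A at 194 ± 19.5, 193 ± 34.7 and 175 ± 19.7 CPM. The undetected gene was HSPA12A (0.0780 ± 0.0255 CPM). All 19 preset genes for tail adaptors and endocytosis were detected as well, and none varied above the edgeR trend but 4 did with the DESeq2 fitted trend. For comparison, 51.3% of all listed genes were detected. Of all detected genes, 4.66% varied above the edgeR trend and 23.5% above the DESeq2 fitted trend. The clathrin heavy chain CLTC had 670 ± 183 CPM and the clathrin adaptor subunits AP2M1 and AP2B1 had 483 ± 75.02 and 481 ± 48.5. SNX17, which recycles LRP1, had 120 ± 23.4 CPM.

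Ordered by mean log2(RPKM + 0.1), the members ran LRP10, LRPAP1, LRP8, VLDLR, LRP4, LRP3, LRP1, SORL1 and LRP2. Of the 8 pairs of neighbours, 6 differed within libraries (exact two-sided sign-flip permutation, adjusted p = 0.00923 for each, n = 8) and 2 did not pass. The order was taken from these same libraries, so the test shows only that the direction of a pair held across them. LRP10 exceeded LRPAP1 by 1.84 ± 0.18, LRPAP1 exceeded LRP8 by 1.07 ± 0.81 and VLDLR exceeded LRP4 by 0.44 ± 0.27 (log2 ratio, SD). These sizes depended on the length used. LRP10 to LRPAP1 was 2.92 ± 0.18 with exons inside the table's span and 0.26 ± 0.19 with coding length, the latter above 0 in 7 of 8 libraries (exact permutation adjusted p = 0.0169, n = 8). LRPAP1 to LRP8 was 2.18 ± 0.79 with the union of exons and 2.95 ± 0.83 with coding length. LRP1 exceeded SORL1 by 2.13 ± 0.33, with the level of SORL1 below the pseudocount. SORL1 exceeded LRP2 by 0.15 ± 0.10, with both genes below the pseudocount (0.0213 and 0.00914 RPKM on average). In replicate 3 both had 12 counts, and in replicate 5 SORL1 had 12 and LRP2 had 14. In those libraries the ratio was above 0 only after division by the transcript lengths of 10863 and 15657 nt. LRP4 and LRP3 differed by 0.19 ± 0.79 (exact permutation adjusted p = 0.492, n = 8) and LRP3 and LRP1 by 0.20 ± 0.64 (exact permutation adjusted p = 0.432, n = 8). LRP4 lay above LRP3 in 5 of 5 libraries with a length slope over 0, by 0.69 ± 0.37, and below it in replicates 2, 7 and 8, by -0.08 to -0.97. The ratio of VLDLR to LRP4 was -0.19 ± 0.27 with the union of all annotated exons as length (exact permutation adjusted p = 0.132, n = 8). It was 1.69 ± 0.26 with exons inside the span, 1.69 ± 0.28 with coding length and 1.35 ± 0.23 with the authors' normalised values, above 0 in 8 of 8 libraries in each.

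**Figure D2:**
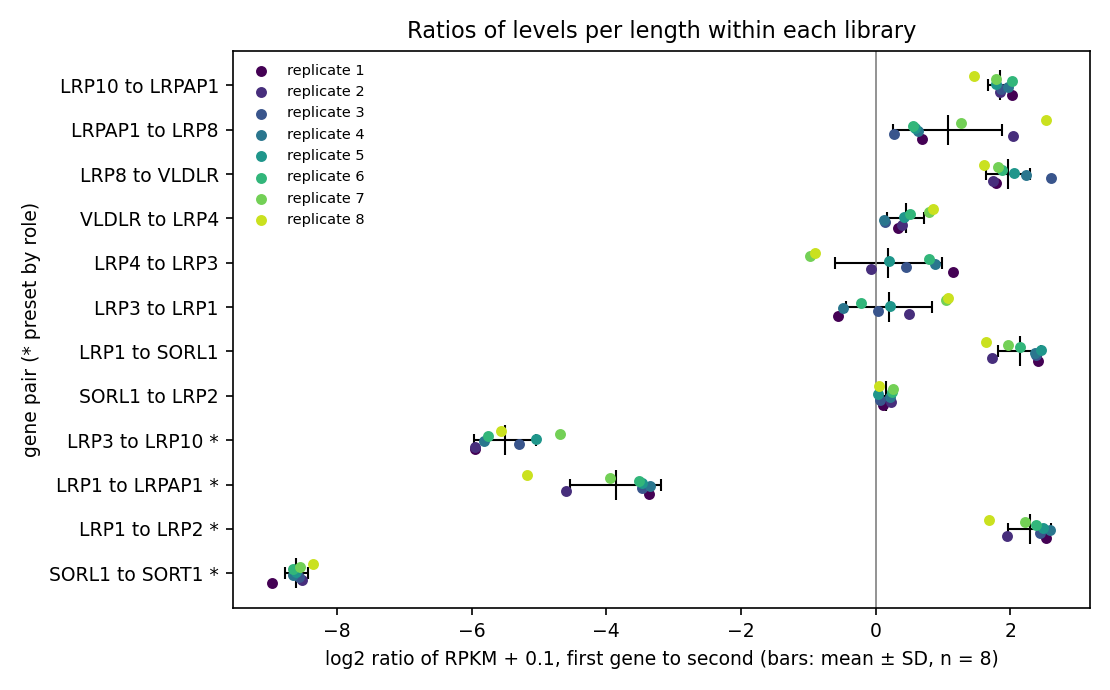
Log2 ratio of levels per length (RPKM + 0.1) for 12 gene pairs, 1 point per library, with bars for the mean ± SD of 8 libraries; an asterisk marks pairs preset by role. Points of the ratio LRP4 to LRP3 lie on both sides of 0, and those of LRP1 to LRPAP1 run from -5.18 to -3.36.

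None of the 7 detected members varied between replicates beyond genes of like abundance, with edgeR's trended dispersion as the yardstick for goodness of fit and adjustment over all 11980 detected genes, of which 4.66% passed. Before adjustment 2 of 7 members, LRP4 and LRP8, passed, against 13.1% of all detected genes, and their edgeR adjusted p-values were 0.255 and 0.360. With the DESeq2 fitted trend 3 members passed, LRP3, LRP4 and LRP8 (adjusted p = 0.0409, 0.00266 and 0.00296), against 23.5% of all detected genes. With each library's trend on transcript length removed, LRPAP1 (edgeR adjusted p = 3.3e-08) and LRP10 (edgeR adjusted p = 0.0340) passed, against 5.27% of the detected genes with a length. Both calls rested on the canonical lengths. With exons inside the table's span LRPAP1 passed (edgeR adjusted p = 2.1e-10) and LRP10 did not (adjusted p = 1), against 5.15% of genes, and with coding length 0 of 7 members passed (edgeR adjusted p = 1 for both), against 4.7%. The median SD over the 7 detected members was 0.44 on log2(CPM + 0.1), beside 0.28 over all detected genes. These SDs are not matched for abundance, as the median level was 2.97 for the members and 5.20 for all detected genes on that scale.

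Replicates 2, 7 and 8 held the 3 lowest CPM values for 4 of 7 detected members (LRP1, VLDLR, LRP8 and LRP4), against 27.3% of all detected genes. By canonical length these 4 belong to the longest of 8 length classes (1448 genes, median 8796 nt), in which 70.6% of genes had the same order. VLDLR is in that class through its canonical transcript of 9213 nt, of which 3636 nt lie inside the table's span. In the class with a median of 3750 nt, 29.7% of genes had this order. LRP1, VLDLR, LRP8 and LRP4 deviated by -0.87, -0.53, -0.85 and -1.06 (log2 CPM) in replicate 8, and the median of the longest class there was -0.62. LRPAP1, placed in the same class by its canonical transcript, had the opposite order: it deviated by 0.64 in replicate 8 and 0.34 in replicate 2, and replicates 2, 7 and 8 held its 3 highest values, as for 4.49% of genes of that class and 30.9% of all detected genes. In replicates 8 and 2 its deviations lay close to the medians of the shortest class by canonical length, 0.61 and 0.36. That class held 1450 genes with a median of 1028 nt. In replicate 7 LRPAP1 deviated by -0.025, beside a median of 0.195 for that class. Its coding length is 1071 nt, and the part of length in its course was not tested. LRP10 deviated by 0.25 in replicate 8, beside a median of -0.36 for its class. That class rests on its canonical length of 6892 nt, of which 3250 nt lie inside the table's span. The class with a median of 3006 nt had a median deviation of 0.11 in replicate 8. LRP10 and LRP3 had neither order: in the canonical class of LRP10 52.6% of genes had replicates 2, 7 and 8 lowest and 8.9% had them highest, and in the class of LRP3 29.7% and 19.8%.

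**Figure D3:**
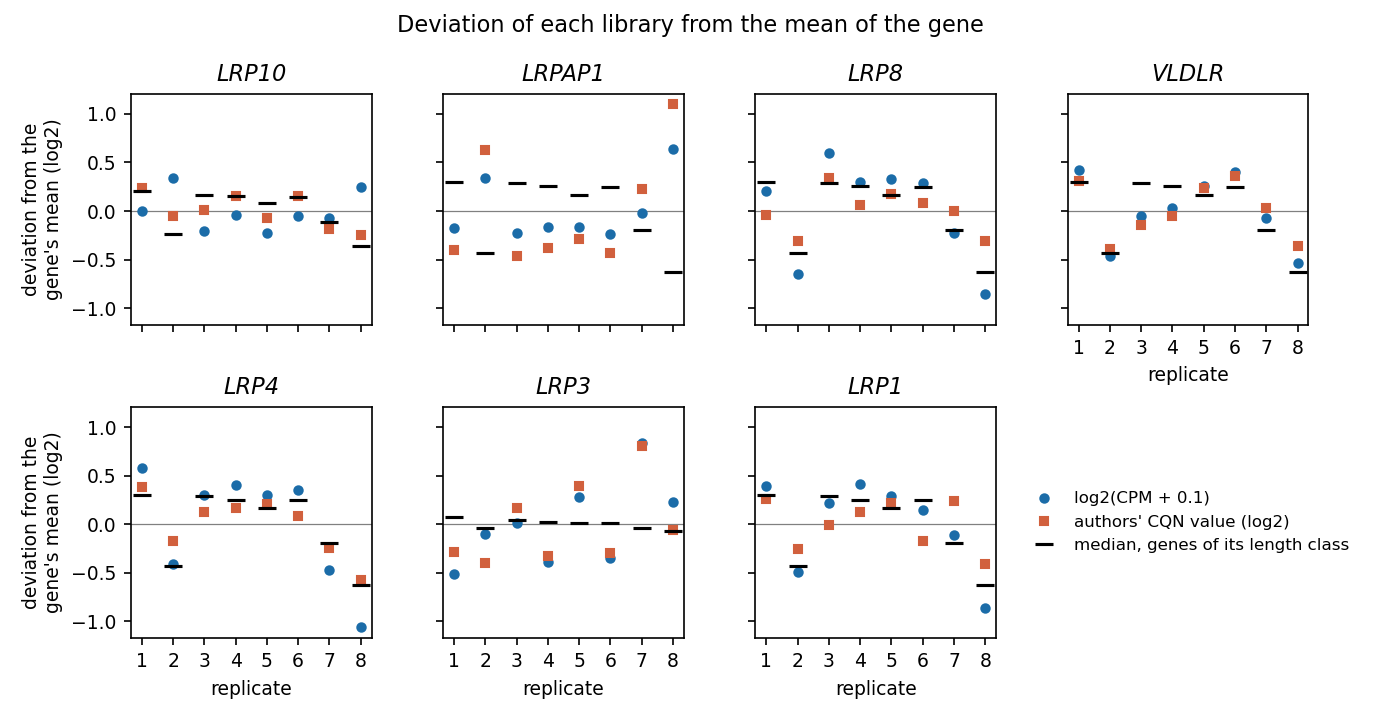
Deviation of each library from the gene's mean (log2) for the 7 detected members, on log2(CPM + 0.1), on the authors' values from conditional quantile normalisation (CQN), and as the median of detected genes in the same length class on log2(CPM + 0.1). LRPAP1 lies above 0 in replicate 8 on both scales, by 0.64 and 1.10, where the class of its canonical length lies at -0.62.

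The authors' CQN values, which adjust each library for length and base composition, narrowed some of these spreads and widened another. The SD went from 0.52 on log2(CPM + 0.1) to 0.22 on CQN values for LRP8, from 0.58 to 0.31 for LRP4 and from 0.46 to 0.25 for LRP1. For LRPAP1 it went from 0.32 to 0.59, with CQN values of 5.70, 6.72, 5.63, 5.72, 5.81, 5.66, 6.32 and 7.198 in replicates 1 to 8. In replicate 8 LRP10 lay above its mean by CPM (226, against 192 ± 27.9) but was lowest by CQN (8.14, against a mean of 8.39 ± 0.17). It was highest in replicate 2 by CPM and in replicate 1 by CQN (8.62). LRP3 kept its highest value in replicate 7 on both scales (CQN 2.85, mean 2.05 ± 0.42). No CQN value was given for LRP2 and SORL1.

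**Figure D4:**
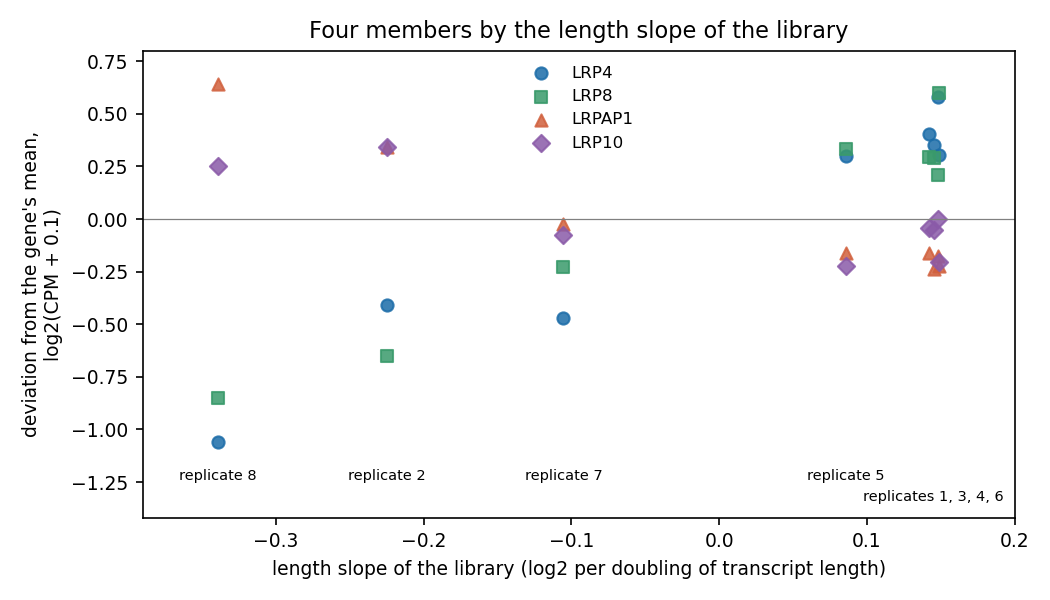
Deviation from the gene's mean on log2(CPM + 0.1) for LRP4, LRP8, LRPAP1 and LRP10 in each of 8 libraries, plotted against the library's length slope. LRP4 and LRP8 lie below 0 in replicates 2, 7 and 8, and LRPAP1 is highest in replicate 8, at 0.64.

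LRP4 and LRP8 had the largest spread of the detected members, and the genes with the most similar course over the 8 libraries were looked up by the root mean square difference of centred log2(CPM + 0.1) values. For LRP4 these were CHD6, ZNF791 and ZCCHC11, with differences of 0.083, 0.086 and 0.088 against a median of 0.58 over the other 11979 detected genes. For LRP8 these were WDR36, HAUS6 and ZZZ3, with 0.055, 0.058 and 0.065 against a median of 0.53. All 6 had their lowest value in replicate 8, as LRP4 and LRP8 did, which follows from the way they were chosen. All 6 have canonical transcripts between 5853 and 10719 nt, in the range of the length classes that were low in that library. The part of length in this likeness was not tested.

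Of 8 further genes of the family, 6 were detected (51.3% of all listed genes were). LRP5, a Wnt co-receptor, had 98.6 ± 16.0 CPM and LDLRAD3 had 84.3 ± 4.90 (SD, n = 8). LRP1B and LDLRAD4 (listed as C18orf1) were not detected, at 0.0375 ± 0.0383 and 0.812 ± 0.349 CPM. LRP6, which acts beside LRP5 in Wnt signalling, was the 1 of 6 detected genes above the edgeR variation trend, against 4.66% of all detected genes. With the DESeq2 fitted trend 3 of the 6 passed, against 23.5%. LRP6 had 63.6 ± 25.03 CPM (edgeR adjusted p = 0.0265), with 90.7 CPM in replicate 1 and 29.6 in replicate 8. The SD of its CQN values was 0.15 (log2), and the part of length in its spread was not tested.

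Ligands of the receptors were measured with 2 preset lists. Against the same 51.3%, 5 of 12 apolipoprotein and lipase genes were detected, and CLU, LIPG and APOE were the highest, at 106 ± 60.5, 38.15 ± 14.4 and 18.01 ± 3.60 CPM (SD, n = 8). CLU, which encodes clusterin, an LRP2 ligand, varied above the trend (edgeR adjusted p = 0.00224) and reached 222 CPM in replicate 8. LIPG, the endothelial lipase gene, did so too (edgeR adjusted p = 0.0181), from 14.1 CPM in replicate 2 to 52.4 in replicate 7. APOC2 had 0 counts in every library. Of 21 protease, inhibitor and matrix genes, which include LRPAP1, 17 were detected. FN1, the fibronectin gene, had 5495 ± 1953 CPM and CTGF, a matrix-associated growth factor gene, had 4931 ± 417. The undetected genes were A2M (0.764 ± 0.246 CPM), THBS2, MMP9 and MMP13, and MDK, a heparin-binding growth factor that binds LRP1, varied above the trend (172 ± 94.4 CPM, edgeR adjusted p = 0.00305). On CQN values (log2) the SD was 0.19 for MDK, 0.65 for CLU and 0.61 for LIPG. Over all pathway lists, 90 of 114 genes were detected (78.9%), against 51.3% of all listed genes. Of these 90, 5 varied above the edgeR trend, a share near the 4.66% of all detected genes.

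Other listed genes overlapped 5 members, and strand use in the counting was not stated. The overlapping genes were SLC7A10 at LRP3, MIR1228 at LRP1, FLJ35024 at VLDLR, LOC100507564 at LRP8 and LOC100507401 at LRP4, each with a mean of at most 0.239 CPM, under the level of the member it overlaps.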

How the data were processed

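Libraries of polyadenylated RNA from 8 replicates of hCMEC/D3 were made with an Illumina TruSeq RNA kit, per the labels' protocols. Per the submitters' processing notes, CASAVA 1.9, TopHat2 2.0.6 and HTSeq were used with build hg19; the annotation, counting options and use of strand are not given in the sources used here. Per the file headers the authors deposited raw counts per gene and values from conditional quantile normalisation, judged to be on a log2 scale. The deposited counts were whole numbers, and 0 of 186768 were odd. All columns used were matched to samples by title, and 0 others held per-sample values. Totals were 69388544 to 90205244 counts per library.

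CPM used TMM-scaled library sizes (edgeR 4.0.16, R 4.3.3), and genes reaching 1 CPM in each of the 8 libraries were called detected. Variation was tested with edgeR's goodness-of-fit test of an intercept-only model on the trended dispersion over all detected genes (Benjamini-Hochberg adjusted p under 0.05), after a check on simulated counts; DESeq2 1.42.0 gave alternative size factors and trend. RPKM is CPM per kilobase of the canonical transcript in GENCODE 44 lifted to GRCh37, matched by symbol (17954 genes) or synonym (1992), and 96.8% of detected genes had a length. Table starts lay 1 below that annotation for 4998 genes and were equal for 680, so printed coordinates are 1-based. Ratios used log2(RPKM + 0.1) and an exact two-sided sign-flip permutation over 256 sign patterns, adjusted over 13 pairs.

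Alternatives were other library scaling, filters, pseudocount, lengths, trends, CQN values and libraries left out; 2 lengths, their use in the length trend and a fit without replicates 2, 7 and 8 were chosen after seeing the data. Named genes were all 9 members; of each pathway list the 3 highest, the undetected where 4 or fewer and those above the trend; and the 3 nearest profiles of the 2 members with the largest spread. A few further list genes (FYN, SRC, SNX17, CUBN, AMN, RELN, DAB1, MUSK, DOK7, RAPSN, APOC2, STMN2, AQP4 and the genes of the closing observations) were chosen after their values were seen, and some genes that the rule takes are not reported here. The members, lists and pairs were chosen with earlier results of these data known.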

Additional observations from a re-analysis of the deposited data

Results flagged for a closer look

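A library stood apart from the other 7 in 2 of 28 sets of values examined (CPM, CQN values and log2 ratios of the members), by a gap to the nearest library larger than Dixon's 95% critical share of the range, which chance alone passes in about 1 in 20 groups. LRP3 had 3.75 CPM in replicate 7, next to 2.51 in replicate 5, a gap of 0.528 of the range. The log2 ratio of LRP10 to LRPAP1 per length was 1.46 in replicate 8, a gap of 0.566 of the range; that library had the steepest length slope, -0.34, and the part of it in this ratio was not tested.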

How the results depend on the processing

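The count of 7 detected members was the same under DESeq2 size factors, unscaled totals, a minimum of 10 counts, 1 CPM in at least 4 libraries, each library left out in turn, and without replicates 2, 7 and 8. The count of members above the variation trend was 0 with edgeR's trend and was 3 with the DESeq2 fitted trend and 2 with the length trend removed (1 with exons inside the table's span, 0 with coding length); it was 0 in the other settings run, including each library left out and without replicates 2, 7 and 8. Of the preset pairs all 5 passed, and with CQN values 3 did because only 3 could be formed. With another length or normalisation the ratio of VLDLR to LRP4 turned to -0.19 (union of exons), LRP4 to LRP3 to -0.069 (coding length) and LRP3 to LRP1 to -0.46 (CQN values, exact permutation adjusted p = 0.0176); the causes were not tested. SORL1 to LRP2 no longer passed with the union of exons (0.039), and LRP3 to LRP1 passed with coding length (0.80). In replicates 1, 3, 4, 5 and 6 alone the exact sign-flip permutation test cannot go below p = 0.0625. No paired analysis was possible because the samples form 1 group. Counting error limits LRP2 and SORL1, with at most 12 read pairs in a library. The sizes of ratios with VLDLR, LRP10 or LRPAP1 depended on the length, as given beside them.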

Other observations

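Genes that cut or fold the receptors were largely present. Of 12 preset sheddase and gamma-secretase genes, which release the ectodomain and then the intracellular tail of LRP1, LRP8 and SORL1, 11 were detected. The share over all listed genes was 51.3%. MMP14, APH1A and ADAM10 were the highest, at 299 ± 67.7, 200 ± 45.3 and 143 ± 57.3 CPM (SD, n = 8). ADAM10 was the 1 of 11 above the trend (edgeR adjusted p = 0.00881), against 4.66% of all detected genes. It had 191 CPM in replicate 6 and 50.3 in replicate 8, and the SD of its CQN values was 0.52 (log2). ADAM12 was not detected (0.0271 ± 0.0324 CPM).

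All 8 preset genes of a list for chaperones and degraders of these receptors, which also holds the processing protease FURIN, were detected, against 51.3% of all listed genes. None varied above the edgeR trend and 3 did with the DESeq2 fitted trend, against 4.66% and 23.5% of all detected genes. HSP90B1, PDIA3 and FURIN were the highest, at 1379 ± 140, 320 ± 57.5 and 164 ± 27.7 CPM. MESDC2, the chaperone of the LRP5 and LRP6 propellers, had 85.5 ± 8.67 CPM, and MYLIP, the ubiquitin ligase that marks VLDLR and LRP8 for degradation, had 10.2 ± 4.15.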
